A study of Homo sapiens with 8 samples.

Results

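The response of the myeloma cell line MM1S to the antitumour compound Zalypsis was measured on 4 of the 8 arrays of the study, 2 of untreated control cells and 2 of cells treated with Zalypsis at 5 nM. These arrays were chosen by their titles, and the response was read across all 11865 genes tested. The treated cells were collected when 15 to 20% of them were dying. The other 4 arrays are labelled as the myeloma line OPM1, 2 of control and 2 of Zalypsis-treated cells at the same dose. They were used for the shared estimate of the spread and for a closing comparison. The identity of these cells was taken from the label. MM1S is an established cell line that goes back to 1 patient's plasma cell cancer, so it stands for 1 tumour only. Nothing in the labels tells whether both arrays of a group had their own culture, and the p-values therefore rest on array-to-array spread that may be technical only. In RNA from a whole culture, fewer cells with a transcript and less of it in each cell cannot be told apart.

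Zalypsis is a synthetic compound related to natural products of marine organisms. It binds guanines in the minor groove of DNA, and compounds of this kind are known to disturb transcription and to cause DNA breaks. Plasma cells secrete antibody, and their identity rests on transcription factors such as IRF4, PRDM1 and XBP1, while their large protein output depends on amino acid supply and on the folding machinery of the endoplasmic reticulum. The tumour suppressor p53 raises genes of cell cycle arrest, DNA repair and death, and the factor ATF4 raises genes of amino acid uptake, amino acid synthesis and tRNA charging.

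The arrays carried the marks of plasma cells. The signal of TNFRSF17, which encodes the receptor BCMA, was 5664 and 5499 in control against 5244 and 5271 in treated cells, and SDC1, the syndecan CD138, gave 3443 and 2946 in control against 2633 and 2369.9 in treated cells. CD38, another antigen of plasma cells, was dim at 61.1 and 47.3 in control against 38.1 and 48.3 in treated cells. None of these 3 was called, though SDC1 was called lower without control 2 (-0.46) and with quantile normalization (-0.32), the scale of the hybridisation controls (-0.69), the MM1S arrays alone or the replicate number as a block. Brightness was judged by the mean of all 8 arrays, so a marker could pass through the OPM1 arrays. Of 10 named T and NK cell markers 1 was bright enough to be tested, of 8 myeloid markers 0, of 13 stromal and epithelial markers 3 and of 8 mature B cell markers 8. Limma called 0 of these 12 in either direction, and a dim gene has little room to fall. The summed signal of the mature B cell markers was 341 and 299.9 on the control arrays and 345 and 315 on the treated arrays, and the sums of the other 3 lists lay between 91.0 and 404 on every array. Across probe sets, the log2 values correlated at 0.993 within each group and at 0.960 to 0.963 between the groups. On the 4 arrays, signal at the 3' end over that at the 5' end was 0.981 to 1.05 for GAPDH and 1.95 to 2.62 for ACTB. The hybridisation controls, bacterial transcripts added to the labelled sample, had a geometric mean of 1095 and 1187 on the control arrays and of 1580 and 1323 on the treated arrays, so a scale set by them lowers the treated arrays.

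In MM1S, Zalypsis raised mostly short genes and lowered a larger number of mostly long genes. The values below are the deposited signals, and changes are on the scale of log2(signal + 32), treated minus control, with the standard error from limma. This scale understates the change of dim genes. A gene was called at a Benjamini-Hochberg adjusted p under 0.05. In all, 4457 of 11865 genes were called (37.6%). Of these 1950 were higher (16.4% of the genes tested) and 2507 lower (21.1%). Rises were smaller than falls: 193 genes were called over 2-fold higher (1.63%) and 850 over 2-fold lower (7.16%), while 5 rose and 170 fell over 4-fold. Leaving out the array Zalypsis 1 left 986 genes higher and leaving out control 2 left 1163. The median change of all genes was 0.02, and it was -0.23 when the arrays were scaled to the hybridisation controls, a median shift of -0.29 that left 505 genes higher and 3685 lower (87.9% of the calls lower against 56.2%). After quantile normalization rises outnumbered falls, at 2790 higher and 2345 lower (45.7% of the calls lower).

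The largest rise was that of HEXIM1, whose product holds the elongation kinase P-TEFb inactive, from 369 and 350.5 on the 2 control arrays to 2403 and 2150.5 on the 2 treated arrays. Its change was 2.56 ± 0.15, and neither group's arrays came near the other's. SERTAD1, a regulator of cyclin D kinases, went from 68.1 and 58.9 to 569 and 473, a change of 2.53 ± 0.14. Both genes are short, with spans of 3.62 and 4.40 kb. MARCKSL1, a substrate of protein kinase C, went from 358 and 281 to 1638 and 1393 (2.14 ± 0.15). SAT1 encodes the enzyme that acetylates spermidine and spermine for breakdown, and it went from 426 and 363 to 1703 and 1340.0 (1.86 ± 0.15). TENT5A, a member of the family of noncanonical poly(A) polymerases, gave 56.6 and 57.6 against 303 and 291 (1.88 ± 0.12). VAMP1, a vesicle fusion protein, gave 81.2 and 90.1 against 444 and 354 (1.87 ± 0.16), and LAMP3, a lysosomal membrane protein, 162 and 161 against 672 and 511 (1.68 ± 0.14). In each of these genes both treated arrays lay above both control arrays by more than the gap within either group. TOB1, which restrains proliferation and recruits mRNA deadenylases, went from 793 and 713 to 2887 and 2624 (1.83 ± 0.15). IRF7, a factor that drives interferon genes, went from 429 and 321 to 1371 and 1172 (1.69 ± 0.16). The ribosomal RNA precursor RNA45SN5, which exists in near-identical copies and so is uncertain, gave 174 and 126 against 621 and 584 (1.81 ± 0.17). The adjusted p of these 10 genes was at most 2.0e-08.

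**Figure D1:**
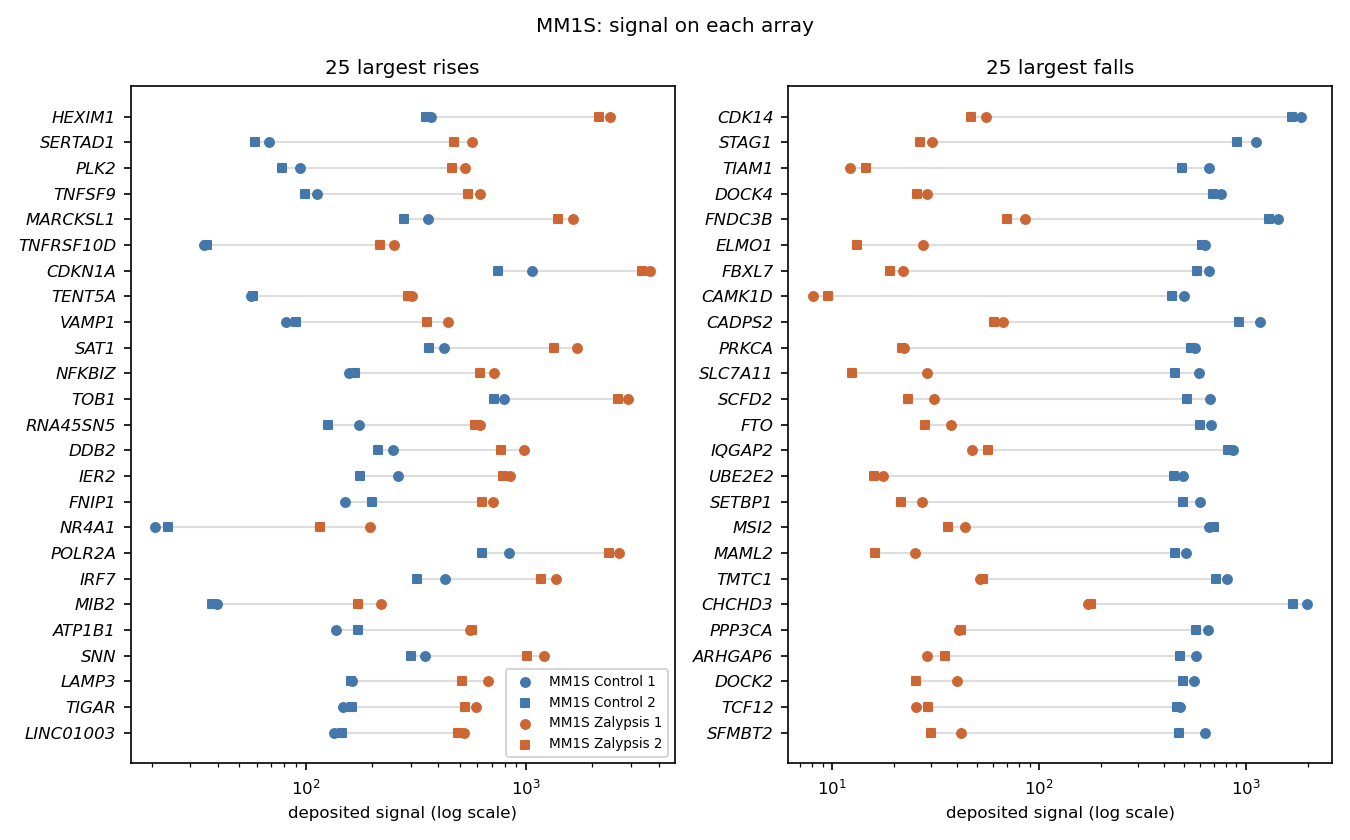
Signal (log axis) of the 25 largest called rises (left) and 25 largest called falls (right) on each of the 4 MM1S arrays. Blue points are control arrays and orange points treated arrays, circles replicate 1 and squares replicate 2. The genes were picked from the called genes whose groups do not overlap, a condition that 4451 of all 4457 called genes met. HEXIM1 rose from 369 and 350.5 to 2403 and 2150.5 and CDK14 fell from 1848 and 1676 to 55.2 and 46.8.

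The falls went deeper. CDK14, a kinase of the cyclin Y type, went from 1848 and 1676 to 55.2 and 46.8, a change of -4.43 ± 0.15 (adjusted p = 7.3e-15). FNDC3B, a membrane protein, went from 1428 and 1297 to 85.2 and 70.0 (-3.67 ± 0.14). CHCHD3, which shapes the inner membrane of mitochondria, went from 1980.1 and 1693 to 172 and 178 (-3.17 ± 0.17). FTO, which removes methyl groups from adenosines in RNA, gave 677 and 600.5 against 37.5 and 28.0 (-3.37 ± 0.14). MSI2, an RNA-binding protein, gave 665 and 698 against 44.0 and 36.4 (-3.31 ± 0.14), but was not called with its brightest probe set of the plain kind (-0.0045), one without _s_at, _x_at or _a_at in its name. PRKCA, a protein kinase C, gave 568 and 545 against 22.1 and 21.8 (-3.45 ± 0.17). PPP3CA, the catalytic subunit of calcineurin, gave 659 and 574 against 41.2 and 41.9 (-3.14 ± 0.13). The treated arrays of these 7 genes lay between 21.8 and 178, with PRKCA below the floor under which genes were not tested (27.3 for the mean of all arrays). The transcription factor TCF12 (-3.10 ± 0.15) and the Notch coactivator MAML2 (-3.29 ± 0.14) fell too. CAMK1D, a calmodulin-dependent kinase, was read at 505 and 439 against 8.06 and 9.51 (-3.62 ± 0.13). All of these genes are long: the spans run from 297 kb for CHCHD3 to 614 kb for CDK14.

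Gene span, the distance from the first to the last base of a gene in the RefSeq table of GRCh38.p14, ordered the response. The median span was 28.3 kb over all genes, 14.6 kb over those called higher and 99.8 kb over those called lower. Genes were divided by span into 10 bins of equal number. In the shortest bin (up to 4.47 kb) 24.8% were called higher and 3.29% lower, with a median change of 0.16. In the longest bin (145 kb to 2304 kb) 3.63% were called higher and 63.0% lower, with a median of -0.86. The medians of the bins in between went 0.17, 0.17, 0.14, 0.11, 0.05, -0.04, -0.18 and -0.50, so that the median moved little over the 4 shortest bins (up to 20.1 kb) and fell from there. Scaled to the hybridisation controls, the shortest bin had a median of -0.09 and the longest of -1.15, and with no filter on dim genes the longest had -0.13. Of the 170 genes that fell over 4-fold, 160 were in the longest bin, and of the 37 that fell over 8-fold, 35 were. The 2 exceptions were the cystine transporter gene SLC7A11 (78.3 kb) and CHAC1 (3.04 kb), a glutathione-degrading enzyme, both of the amino acid response. Of the 193 genes that rose over 2-fold, 113 were in the 3 shortest bins and 5 in the longest. Across the 11853 genes with a span, Spearman's correlation between span and change was -0.48 and Pearson's r with log10 span -0.50, as a description, since genes are not replicates and share the arrays.

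**Figure D2:**
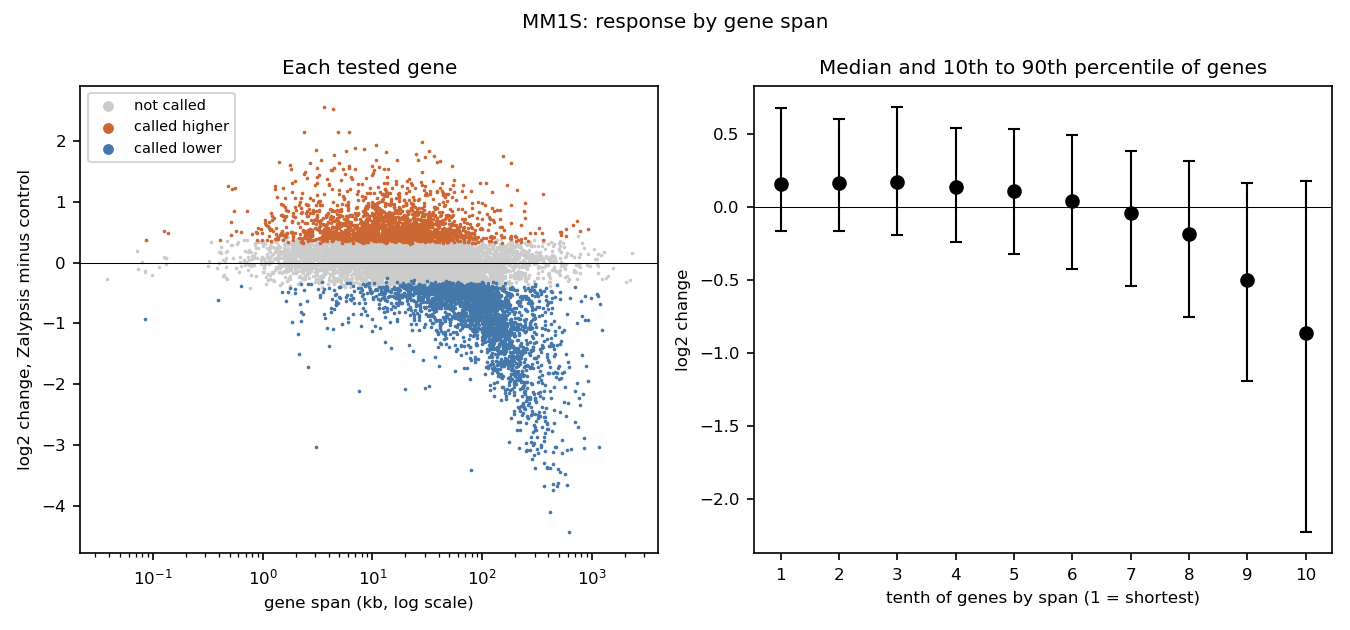
Left, log2 change of each tested gene against its span in kb (log axis), orange called higher, blue called lower, grey not called. Right, the median change in each of 10 equal bins of genes by span, with bars from the 10th to the 90th percentile of the genes, falling from 0.16 in the shortest bin to -0.86 in the longest.

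The relation differed with how bright a gene was in untreated cells. All tested genes were divided into 3 equal classes by control signal. In the longest bin, 249 of the 277 genes of the brightest class were called lower and 0 higher by limma, with a median change of -1.45. In the middle class (signals of 93.0 to 409) 386 of 456 were lower and 14 higher (median -1.33). In the dimmest class 111 of 452 were lower and 29 higher (median -0.02). The control signals of this class were 2.37 to 93.0, which leaves little room to fall. Its genes with control signals under the floor of 27.3 passed the filter only through treated or OPM1 arrays. How much of the contrast between the classes comes from this was not tested. Chromosomes differed little beside this: their medians ran from -0.06 on chromosome 4, where the median span was 48.4 kb, to 0.10 on chromosome 19, where it was 15.5 kb. Genes of long noncoding RNA, with a median span of 7.88 kb, were called higher in 141 of 642 cases and lower in 27 (median 0.14). With the scale of the hybridisation controls 45 were higher and 50 lower (median -0.06). Genes whose symbol starts with ZNF, which mostly encode zinc finger factors, were higher in 70 of 301 cases and lower in 19 (median 0.15). With that scale 18 were higher and 42 lower (median -0.08).

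Of the longest bin 43 genes were called higher, and in each of the 6 with the largest rises another probe set went down. FNIP1, a partner of folliculin in nutrient sensing (155 kb), went from 151 and 200.2 to 705 and 633 with the probe set used for it (1.76 ± 0.15), while 2 other probe sets fell by 0.80 and 0.46 on the log2 scale. REV3L, the catalytic subunit of the translesion polymerase zeta, went from 66.0 and 67.0 to 282 and 271 (1.65 ± 0.13), but a second probe set went from 288 and 344 to 152 and 142 (-0.95 ± 0.15). NSD1, a histone H3 methyltransferase, rose with 2 probe sets (1.28 and 0.92) and fell with another (-0.66). CDK19, a kinase of the Mediator complex, rose with 1 (1.20) and fell with 2 (-1.15 and -0.91). NEDD4L, a ubiquitin ligase, did the same (1.13 against -1.12 and -0.57), and so did the transcription factor ETV6 (0.98 against -2.07 and -0.89). For these 6 genes no single direction can be given from this array.

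Opposite calls in probe sets of 1 gene were found in 128 of 5643 genes with at least 2 tested probe sets. The RNA-binding protein QKI fell with 5 probe sets, the largest fall being from 484 and 390 to 159 and 176 (-1.23), and rose with 1 from 60.1 and 69.9 to 276 and 276 (1.67). ITPKB, an inositol kinase, fell with 1 (-1.05) and rose with 2 (1.31 and 0.62). ASXL1, a chromatin regulator, fell with 2 (-0.996 and -0.94) and rose with 2 (0.99 and 1.04). SRSF1, a splicing factor, was not called with its brightest probe set (-0.27 ± 0.12), fell with 3 others and rose with 2, 1 of them from 142 and 159 to 616 and 524 (1.72). Which part of a transcript each probe set reads was not analysed here.

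**Figure D3:**
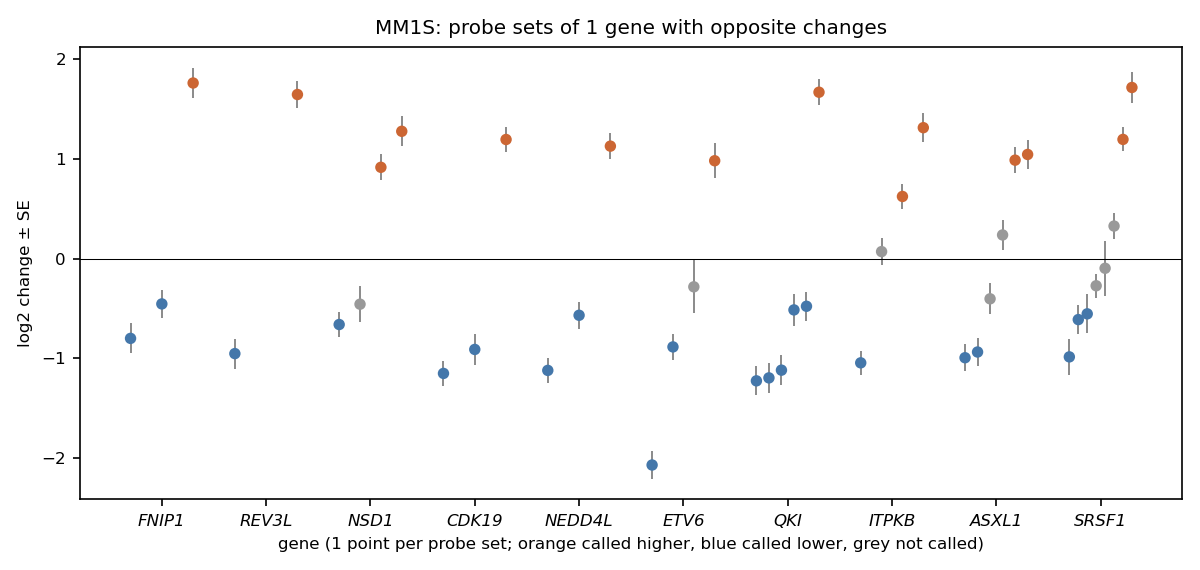
Log2 change with its standard error of every tested probe set of 10 genes, 1 point per probe set, orange called higher, blue called lower, grey not called. Each gene has calls on both sides of 0, such as SRSF1 with 1.72 and -0.99.

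Short genes that fell were few, 39 in the shortest bin. The deepest was CHAC1, from 363 and 311 to 14.9 and 10.8 (-3.04 ± 0.13). ATF4, the factor that drives CHAC1 under amino acid shortage, went from 5279.6 and 4698 to 1915 and 1590.2 (-1.50 ± 0.13). CEBPB, a bZIP factor that pairs with ATF4, went from 1543 and 1134 to 617 and 520.4 (-1.18 ± 0.16). BHLHA15, a factor of secretory cells also known as MIST1, went from 478 and 361 to 141 and 141 (-1.37 ± 0.15). CYP26A1, which degrades retinoic acid, went from 1235 and 1062 to 534 and 510.2 (-1.09 ± 0.14). SND1-IT1, an RNA from an intron of SND1, gave 144 and 199 against 36.1 and 22.7 (-1.72 ± 0.15). In all 6 both treated arrays lay below both control arrays.

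Among p53 target genes, 26 of 34 tested members were called higher (76.5%, against 16.4% of all genes) and 3 lower, with a median change of 1.02 against 0.02 for all genes. The p53 list rose 1.05 above the median of genes of like span, and its median was 0.69 when scaled to the hybridisation controls. Of 38 members named on the array 4 were too dim to test. Arrest genes rose: CDKN1A, which encodes p21, from 1066 and 747 to 3644 and 3359 (1.93 ± 0.16), and PLK2, a stress-induced kinase, from 94.2 and 78.3 to 526 and 459 (2.15 ± 0.13). The checkpoint genes GADD45A, from 736 and 628 to 1899 and 1591 (1.31 ± 0.15), and CCNG1, from 1588 and 1456 to 3216 and 2753 (0.95 ± 0.14), rose too. Repair genes followed, with DDB2 and XPC, which find damaged bases, at 1.78 ± 0.14 and 1.18 ± 0.14 and POLH, which copies past lesions, at 1.11 ± 0.15. TIGAR, which diverts glucose from glycolysis, gave 148 and 163 against 592 and 526 (1.65 ± 0.15). The phosphatase PPM1D (1.18) and TRIAP1 (1.49), which temper the p53 response or death, rose as well, as did the kinase PLK3 (1.46). MDM2, the ubiquitin ligase that degrades p53, went from 1770.4 and 1759.6 to 2634 and 2385, a smaller change of 0.50 ± 0.15 (adjusted p = 0.013). BAX, which opens the mitochondrial membrane, gave 160.0 and 159 against 215 and 234 (0.42 ± 0.14), and GDF15, a secreted stress factor, was too dim to test at 14.3 and 16.6 against 29.5 and 27.0. The 3 members that fell were the ubiquitin ligase adaptor FBXW7 (-1.87, span 216 kb), CYFIP2 (-1.14, 129 kb) and SESN2 (-0.42), which ATF4 also drives. The call of MDM2 was lost with the scale of the hybridisation controls (0.16) and without Zalypsis 1 (0.43). The call of SESN2 was lost without control 1 (-0.20), without Zalypsis 1 (-0.53) and without Zalypsis 2 (-0.31). The call of BAX was lost with the scale of the hybridisation controls (0.13), without control 1 (0.43), without control 2 (0.42) and without Zalypsis 2 (0.37).

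The regulators of p53 moved the other way. Of 9 tested, 6 were lower (66.7%, against 21.1% of all genes) and 1 higher (median -0.72, which was 0.34 below genes of like span). HIPK2, a kinase that phosphorylates p53, went from 1475 and 1382 to 139 and 151 (-3.05 ± 0.12). The acetyltransferase CREBBP gave 461 and 443 against 169 and 187 (-1.21 ± 0.15) and USP7, which deubiquitinates p53 and MDM2, 1981 and 1743 against 926 and 849.9 (-1.04 ± 0.17). MDM4, a partner of MDM2, gave 455 and 366 against 253 and 220.2 (-0.72 ± 0.16), and was not called with the mean of its probe sets. SIRT1, a deacetylase, was the member that rose (0.50 ± 0.16). The spans of the 4 named falls ran from 41.7 to 216 kb. The call of SIRT1 was lost with the scale of the hybridisation controls (0.17), without control 2 (0.46) and without Zalypsis 1 (0.36).

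In the cell cycle, the genes of the G1 phase split by direction and mitotic genes mostly held their level. Of 20 G1 genes 7 rose and 6 fell (35% and 30%, against 16.4% and 21.1% of all genes). CDK6 went from 2407 and 2649.5 to 532 and 526 (-2.19 ± 0.15), RB1 gave 342 and 316 against 113 and 111 (-1.33 ± 0.15), and its relative RBL1 216 and 248 against 76.3 and 69.0 (-1.33 ± 0.13). CCND2, a cyclin of the D type, went from 6022 and 5312 to 3798 and 3514 (-0.63 ± 0.15). The cyclin E gene CCNE2 went from 127 and 155 to 429 and 354 (1.29 ± 0.15), the inhibitor CDKN1C from 74.6 and 63.95 to 223 and 244 (1.39 ± 0.12) and CDK2 from 449 and 319 to 785 and 688 (0.90 ± 0.17). The risen genes of the G1 list had a median span of 5.96 kb and the fallen ones of 95.7 kb. Of 30 genes of G2 and mitosis 6 were higher and 3 lower, near the shares over all genes, with a median of 0.13. CDK1 went from 2625 and 2497 to 3829.8 and 3735 (0.56 ± 0.13) and PTTG1, the separase inhibitor, from 1932 and 1553 to 3174 and 2585 (0.72 ± 0.14). MKI67 gave 1916 and 1567 against 2368 and 1967 and CCNB1 1619.7 and 1505 against 1739 and 1681, neither called, though MKI67 was called higher after quantile normalization (0.38) and with the replicate number as a block (0.31). Scaled to the hybridisation controls, 1 of the mitotic genes was higher and 6 lower, with a median of -0.20, and CDK1 and PTTG1 were not called. Without control 2 or without Zalypsis 1, 3 mitotic genes were higher, and without Zalypsis 2, 1 was lower.

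Replication genes (9 of 41 higher, 6 lower) held the sliding clamp PCNA, which was among the brightest genes called higher at 4465 and 4521 against 7082 and 6509 (0.59 ± 0.12). The licensing factors CDC6 (0.64), CDT1 (0.64) and ORC6 (0.82) rose. Subunits of the polymerase that primes DNA synthesis fell, POLA1 from 412 and 373 to 30.3 and 35.9 (-2.70 ± 0.12, span 303 kb) and PRIM2 from 241 and 220.2 to 23.8 and 24.7 (-2.22 ± 0.13, 425 kb). With the scale of the hybridisation controls 1 replication gene was higher and 13 were lower, PCNA, CDC6, CDT1 and ORC6 were not called, and without control 1 or without Zalypsis 2, 3 were lower.

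Repair genes split in the same way. In nucleotide excision repair, which removes bulky lesions, 6 of 19 genes rose and 2 fell, with DDB2 and XPC the largest rises. These shares were 31.6% and 10.5%, against 16.4% and 21.1% of all genes. XPA gave 153 and 145 against 238 and 216 (0.52 ± 0.13) and ERCC5, the endonuclease XPG, 220.4 and 183 against 339.7 and 249.9 (0.47 ± 0.15), while ERCC1 gave 144 and 162 against 192 and 164 and was not called (0.18 ± 0.13). Of the excision repair list 3 genes were higher without control 2 and 2 without Zalypsis 1. By limma, 0 were lower without control 1, Zalypsis 1 or Zalypsis 2, and with the scale of the hybridisation controls 2 were higher and 6 lower. The call of XPA was lost with the scale of the hybridisation controls (0.23) and without Zalypsis 1 (0.45). The call of ERCC5 was lost with the scale of the hybridisation controls (0.17), without control 2 (0.36) and without Zalypsis 1 (0.27). In end joining 5 of 12 genes fell (41.7%) and 1 rose (8.33%). XRCC4, the partner of ligase IV, went from 224 and 200.2 to 24.8 and 20.2 (-2.16 ± 0.13, span 297 kb), and PRKDC, the DNA-dependent protein kinase, gave 1322 and 1214 against 628 and 634 (-0.97 ± 0.16). LIG4 itself, the ligase, rose from 131 and 142 to 327 and 274 (0.98 ± 0.16). In homologous recombination and the Fanconi pathway 6 of 26 genes rose and 5 fell, near the shares over all genes. EXO1 (0.78) and FANCB (0.95) were up and BRIP1 (-1.14) was down. Fewer of the list fell without Zalypsis 1 or without Zalypsis 2. The call of EXO1 was lost with the scale of the hybridisation controls. FANCB, a gene of the longest bin by span, lay under the floor of 27.3 on both control arrays. It passed the filter only through the treated and OPM1 arrays. H2AX, the histone phosphorylated at breaks, went from 2618 and 2453 to 4763 and 4853 (0.92 ± 0.12), and ATR, the kinase of stalled forks, from 486 and 466 to 270.0 and 263 (-0.77 ± 0.16).

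Among genes of cell death, receptors and their ligands held the largest rises and BCL2 a deep fall. BCL2, which protects mitochondria, went from 707 and 614 to 109 and 82.4 (-2.44 ± 0.15), and PMAIP1, which encodes its antagonist NOXA, from 546 and 497 to 1582 and 1549.5 (1.53 ± 0.14). MCL1, the survival protein on which many myelomas depend, gave 2339 and 1951 against 3083 and 2829 (0.46 ± 0.13). The death receptor FAS went from 142 and 153 to 525 and 492 (1.59 ± 0.12), the TRAIL receptor TNFRSF10B from 321 and 255 to 706 and 627 (1.13 ± 0.15) and the decoy receptor TNFRSF10D from 34.5 and 35.8 to 253 and 217 (1.99 ± 0.13). TNFSF9, the ligand of 4-1BB, went from 113 and 99.8 to 618 and 546 (2.15 ± 0.16). TNFRSF13B, the receptor TACI, fell from 1791 and 1489.7 to 914 and 865 (-0.85 ± 0.15). Of 16 tested receptors and ligands 4 rose, each over 2-fold, and 2 fell (25% and 12.5%, against 16.4% and 21.1% of all genes). BIRC6, a giant inhibitor of apoptosis, went from 628 and 625 to 81.2 and 79.1 (-2.55 ± 0.15, span 262 kb), and XIAP, its smaller relative, gave 488 and 488 against 469 and 451 and was not called. Of 15 caspases and inhibitors 5 were higher (33.3%, against 16.4% of all genes), none over 2-fold, and 2 lower (13.3%, against 21.1%). With the scale of the hybridisation controls limma called 0 of the 15 higher. Fewer were called higher when any 1 of the 4 arrays was left out. The call of MCL1 was lost with the scale of the hybridisation controls (0.12), without control 2 (0.33) and without Zalypsis 1 (0.40).

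Genes of the transcription machinery were called in both directions, at shares near those over all genes. POLR2A, the largest subunit of RNA polymerase II, went from 836 and 633 to 2632 and 2382 (1.74 ± 0.15), and of 33 genes of the polymerase and its general factors 7 rose (21.2%) and 8 fell (24.2%). MNAT1, a subunit of the TFIIH kinase, went from 133.01 and 124 to 13.3 and 10.9 (-1.86 ± 0.13, span 235 kb). In the P-TEFb group 7 of 32 rose (21.9%) and 9 fell (28.1%). With HEXIM1 rose CCNT1, the cyclin of P-TEFb, from 563 and 529.6 to 1096 and 1004 (0.90 ± 0.16), MEPCE (0.96), which caps the 7SK RNA, and BRD2 (1.22), a reader of acetylated histones. MLLT3 (-1.71), AFF1 (-1.01) and CDC73 (-0.99), which act in elongation complexes, fell. Among 30 Mediator subunits 7 rose (23.3%) and 9 fell (30%), MED13L from 302 and 315 to 27.2 and 24.4 (-2.56 ± 0.12) and MED28 up from 534 and 467 to 1096 and 1017 (1.03 ± 0.14). MYC went from 2981 and 3063 to 660.4 and 697 (-2.10 ± 0.17) although its span is 7.52 kb, and its partner MAX gave 654 and 509 against 454 and 423 and was not called (-0.37 ± 0.15). MAX was called lower without control 2 (-0.54) and with quantile normalization (-0.29), the scale of the hybridisation controls (-0.70), no trend or the replicate number as a block. Of the MAX-binding repressors MXD3 (0.79) rose and MXI1 (-0.85) fell. Without control 2 or without Zalypsis 1, 3 polymerase genes and 4 P-TEFb genes rose. Without Zalypsis 1, 4 Mediator genes rose, and without Zalypsis 2, 5 P-TEFb genes and 5 Mediator genes fell. With the scale of the hybridisation controls 2 polymerase genes rose and 10 fell, 4 P-TEFb genes rose and 11 fell, and 2 Mediator genes rose and 13 fell.

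Immediate early genes, which cells switch on within minutes of a stimulus, were called higher in 15 of 25 cases (60%, against 16.4% of all genes) with a median of 0.64. By limma 0 fell, and 3 did with the scale of the hybridisation controls, where 12 were higher and the median was 0.34. JUN went from 459 and 428 to 1435 and 1112 (1.45 ± 0.16), JUNB gave 68.4 and 73.3 against 259 and 272 (1.53 ± 0.13) and ATF3 526 and 451 against 1264 and 1011 (1.16 ± 0.16), a call lost with its brightest probe set of the plain kind (0.096). IER5 went from 1158 and 940.4 to 3231 and 2931 (1.53 ± 0.14) and KLF4, from a lower start, from 37.2 and 40.6 to 142 and 120.3 (1.20 ± 0.14). EGR3 stayed dim at 8.09 and 7.44 against 5.76 and 6.75 and was not called. The phosphatases that switch off MAP kinases split, with DUSP1 from 139.5 and 167 to 462 and 458 (1.41 ± 0.13) and DUSP22 from 1325 and 1069 to 506 and 508 (-1.18 ± 0.16, span 58.9 kb).

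The promoters of the most risen genes were read in the RefSeq table of GRCh38.p14, from 250 bases before to 50 after the start, for 9627 tested genes. The letters TATAAA on either strand stood in 5.84% of these promoters and in 15 of the 156 promoters of genes that rose over 2-fold (9.62%). Of the 25 largest rises, those below have it 29 or 30 bases before the start (capitals), on the strand of the gene. They were picked from the 25 largest rises because they hold these letters, and larger rises than some of them are not shown. A match is a description of letters only.
HEXIM1: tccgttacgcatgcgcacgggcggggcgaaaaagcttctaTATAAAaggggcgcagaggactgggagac
TNFSF9: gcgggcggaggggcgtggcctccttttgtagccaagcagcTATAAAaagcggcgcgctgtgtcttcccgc
TENT5A: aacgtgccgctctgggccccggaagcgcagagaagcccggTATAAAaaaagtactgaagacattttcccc
NFKBIZ: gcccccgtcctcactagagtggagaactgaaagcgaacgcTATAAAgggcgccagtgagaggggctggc
These stretches end at the base before the start. HEXIM1 lies at chr17:45148406-45148474 (plus strand), TNFSF9 at chr19:6530956-6531025 (plus), TENT5A at chr6:81752682-81752751 (minus) and NFKBIZ, an inducible nuclear IkB protein, at chr3:101827921-101827989 (plus). The 4 genes rose by 1.84 to 2.56. The p53 consensus element, searched as a pair of its decamers with at most 1 base between them, was found in 1 of the 9627 windows, and nothing is drawn from this about p53.

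Of 17 tested transcription factors of plasma cell identity 9 fell (52.9%, against 21.1% of all genes) and 2 rose (11.8%, against 16.4%). Their median was -0.40, and this was 0.08 above the median of genes of like span. IRF4, on which myeloma cells depend, went from 4897 and 3869 to 1102 and 923 (-2.08 ± 0.17) with a span of only 19.7 kb. MEF2C went from 2729 and 2804 to 676 and 748 (-1.91 ± 0.15), XBP1, the factor of the secretory program, from 4576 and 4423 to 2558 and 2222 (-0.91 ± 0.14), and PRDM1, which silences B cell genes, from 2703 and 3039 to 1985 and 1821 (-0.58 ± 0.19). POU2AF1, a coactivator of immunoglobulin genes, gave 4806 and 4714 against 3148 and 2794 (-0.68 ± 0.13), and MAF, the oncogene that marks this line's translocation class, 4619.7 and 4716 against 3001 and 2910.4 (-0.65 ± 0.14). IKZF1 gave 1707 and 1674 against 1679.8 and 1579.5 and was not called, but it fell with the mean of its probe sets (-0.44). At the cell surface the growth factor receptor IGF1R went from 537 and 508 to 41.4 and 46.8 (-2.87 ± 0.12, span 316 kb), and the adhesion genes ITGA4 and CD44 fell by 1.02 and 0.73 on the log2 scale. The call of PRDM1 was lost without control 2 (-0.50), without Zalypsis 2 (-0.52), with a pseudocount of 1 (-0.59) and with no filter. MAF was not called with its brightest probe set of the plain kind (0.15).

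The interleukin 6 pathway, a growth signal of myeloma cells, lost signal at the receptor and gained it at an inhibitor. The receptor IL6R went from 3117 and 2678 to 1563 and 1316 (-0.99 ± 0.14) and the kinase JAK1 gave 1199 and 984 against 394 and 369.8 (-1.44 ± 0.15). SOCS1, which blocks JAK kinases, went from 45.0 and 24.1 to 179.9 and 159 (1.61 ± 0.15). The kinase gene PIM1, a target of STAT3, gave 424 and 278 against 149.8 and 158 (-1.02 ± 0.15), and STAT3 gave 288 and 231 against 274 and 279 and was not called (0.09 ± 0.15). Of 19 members 4 rose and 7 fell (21.1% and 36.8%, against 16.4% and 21.1% of all genes). Among NF-kB genes (5 of 20 higher, 5 lower, 25% each, near the shares over all genes) both subunits and inhibitors were called in both directions. Of the subunits RELA rose from 892 and 696 to 1265 and 1039 (0.52 ± 0.16) and NFKB1 fell from 472 and 381 to 158 and 160.3 (-1.25 ± 0.16). Of the inhibitors NFKBIA rose from 649 and 459 to 1201 and 1052 (1.00 ± 0.17). TNFAIP3 fell from 1959 and 1622 to 1131 and 1054 (-0.69 ± 0.15) and NFKBIB from 121 and 107 to 78.6 and 88.7 (-0.34 ± 0.12). NFKBIZ, a nuclear IkB protein not counted here as an inhibitor, rose from 158 and 167 to 714 and 618 (1.84 ± 0.16). The call of RELA was lost with the scale of the hybridisation controls (0.19), without control 2 (0.35) and without Zalypsis 1 (0.38). The call of NFKBIB was lost without control 1 (-0.27), without control 2 (-0.41), without Zalypsis 1 (-0.27) and without Zalypsis 2 (-0.40). It was lost too with quantile normalization (-0.23), a pseudocount of 1 (-0.44) or no filter. TRAF3, which restrains the noncanonical branch, gave 359 and 299 against 126 and 114 (-1.24 ± 0.14). Of the NF-kB genes 2 rose without control 2 and 3 without Zalypsis 1, and 3 fell without control 1, Zalypsis 1 or Zalypsis 2.

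Genes of the amino acid response mostly fell. Of 29 tested genes of the ATF4 response 19 were lower (65.5%, against 21.1% of all genes) and 1 higher, with a median of -0.54, which was 0.63 below genes of like span. The deepest fall was that of SLC7A11, which imports cystine and went from 595 and 453 to 28.6 and 12.4 (-3.41 ± 0.15), followed by CHAC1 (-3.04 ± 0.13). SLC7A5, the large neutral amino acid transporter, went from 2269.9 and 1750.2 to 787 and 696 (-1.39 ± 0.15) and SLC7A1, the cationic one, from 1269 and 947 to 329 and 332 (-1.64 ± 0.16). Serine synthesis fell with PSAT1, from 3093 and 2999.9 to 745 and 702 (-2.03 ± 0.15). ASNS, asparagine synthetase, gave 1869 and 1525 against 1348 and 1169 (-0.42 ± 0.15). CTH, the last enzyme of cysteine synthesis, was the 1 member called higher (0.64 ± 0.13), though not with the scale of the hybridisation controls. DDIT3, which encodes CHOP, gave 324 and 229 against 242 and 175 and was not called. It was called lower without control 2 (-0.58), without Zalypsis 1 (-0.56), with the scale of the hybridisation controls (-0.66) and with the replicate number as a block (-0.36). The call of ASNS was lost without control 1 (-0.27), without Zalypsis 1 (-0.52) and without Zalypsis 2 (-0.32).

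The cytosolic aminoacyl-tRNA synthetases, which load amino acids onto tRNA, fell with it. Of 17 tested 10 were lower (58.8%) and 1 higher, with a median of -0.74, which was 0.52 below genes of like span. CARS1 went from 2375 and 2028 to 859 and 816 (-1.36 ± 0.14), AARS1 from 2091 and 1689.8 to 789.8 and 749.6 (-1.25 ± 0.15) and GARS1 from 3562 and 3178 to 1593 and 1410.5 (-1.15 ± 0.13). YARS1 (-1.12), EPRS1 (-0.82), IARS1 (-0.75), TARS1 (-0.75) and NARS1 (-0.35) fell too. KARS1 gave 2246 and 1902 against 2176 and 1917 and HARS1 876 and 681 against 872 and 709, neither called, and LARS1 rose from 944 and 1090.3 to 1638 and 1302 (0.51 ± 0.17), though with the mean of its probe sets the value was -0.21. The call of NARS1 was lost without control 1 (-0.27), without Zalypsis 1 (-0.42) and without Zalypsis 2 (-0.28). The call of LARS1 was lost with the scale of the hybridisation controls (0.18), without control 1 (0.41) and without Zalypsis 1 (0.35).

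The letters TGATGCAA, or TTGCATCA on the other strand, are those of the amino acid response element that ATF4 binds with its partners. They stood in 52 of the 9627 promoters (0.540%). Of the 2126 promoters of genes called lower 22 held them (1.03%), and of the 1568 of genes called higher 3 did (0.191%). Of the 14 synthetase promoters at hand 5 held them (35.7%), those of AARS1, CARS1, IARS1, NARS1 and TARS1. All 5 genes were called lower, as were 10 of the 17 synthetases tested. CHAC1 and HERPUD1, a gene of protein degradation at the endoplasmic reticulum, had them too. A match is a description of letters only, and binding by ATF4 was not tested. The stretches below show the element (capitals) where it begins before the start, in the direction of the gene.
AARS1: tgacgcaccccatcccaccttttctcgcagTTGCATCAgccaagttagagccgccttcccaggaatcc
CARS1: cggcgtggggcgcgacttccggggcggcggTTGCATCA
IARS1: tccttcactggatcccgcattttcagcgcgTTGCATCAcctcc
CHAC1: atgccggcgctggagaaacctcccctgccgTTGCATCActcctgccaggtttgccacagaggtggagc
HERPUD1: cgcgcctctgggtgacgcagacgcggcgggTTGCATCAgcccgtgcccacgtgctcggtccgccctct
In all 5 it reads on the strand opposite to the gene. It begins 187 bases before the start in AARS1 (chr16:70289656-70289723, minus strand), 2 in CARS1 (chr11:3057418-3057455, minus) and 13 in IARS1 (chr9:92293698-92293740, minus). In CHAC1 (chr15:40953232-40953299, plus) it begins 209 bases before the start and in HERPUD1 (chr16:56931936-56932003, plus) 176.

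**Figure D4:**
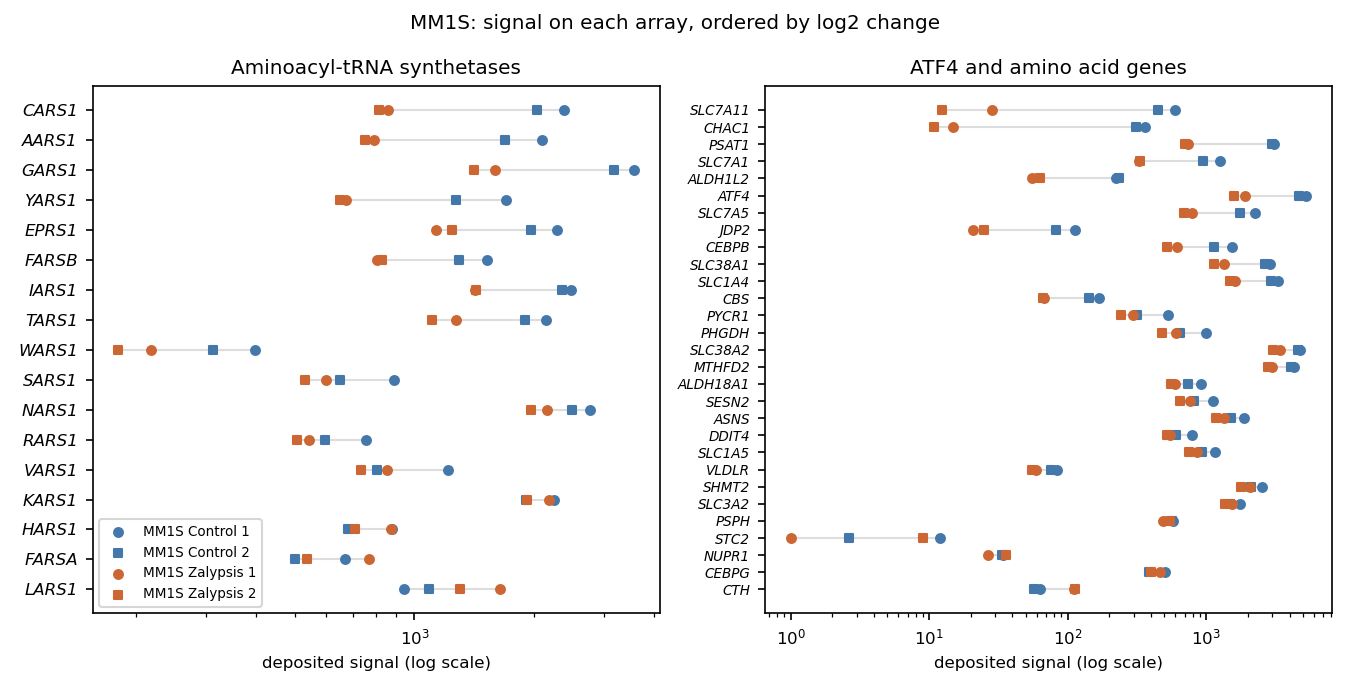
Signal (log axis) of the 17 tested aminoacyl-tRNA synthetase genes (left) and 29 tested ATF4 and amino acid genes (right) on each MM1S array, ordered by log2 change. Blue marks control and orange treated arrays, circles replicate 1 and squares replicate 2, and CARS1 and SLC7A11 at the top have groups far apart while HARS1 and STC2 overlap.

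In the unfolded protein response, which plasma cells need for secretion, 11 of 29 genes fell (37.9%, against 21.1% of all genes) and 3 rose (median -0.26, 0.33 below genes of like span), and without control 2 or without Zalypsis 1, 1 rose. The sensor ATF6 went from 458 and 425 to 97.3 and 98.3 (-1.87 ± 0.13, span 198 kb) and the kinase PERK, encoded by EIF2AK3, from 1530.5 and 1289 to 877 and 758 (-0.76 ± 0.16), while the sensor IRE1, encoded by ERN1, rose from 583 and 498 to 804 and 673 (0.43 ± 0.15), as did CRELD2 (0.69). The call of ERN1 was lost with the scale of the hybridisation controls (0.10), without control 2 (0.32) and without Zalypsis 1 (0.30). The call of CRELD2 was lost with the scale of the hybridisation controls (0.36). With the mean of its probe sets ERN1 was called lower (-0.65). HERPUD1 went from 6842 and 5902 to 3791 and 3408 (-0.82 ± 0.13), and TRIB3, a target of ATF4, gave 1557 and 1269.5 against 759 and 695 (-0.92 ± 0.16). The chaperones HSPA5, at 4566 and 4395 against 3879 and 3595, and HSP90B1, at 1734 and 1663 against 1796 and 1845, were not called, but HSPA5 was called lower with quantile normalization (-0.25), with the scale of the hybridisation controls (-0.60) and, at -0.26, with the MM1S arrays alone, without OPM1 control 1 or with the replicate number as a block.

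Chromatin genes fell in large numbers and mostly in long genes. Of 56 histone methyltransferases, demethylases, acetyltransferases and deacetylases 25 were lower (44.6%, against 21.1% of all genes) and 5 higher (8.93%, against 16.4%). Their median of -0.29 was 0.02 below genes of like span. KDM4B, a demethylase of histone H3, went from 476 and 402 to 54.5 and 41.8 (-2.56 ± 0.14), the methyltransferase KMT2C from 1011 and 903 to 184 and 174 (-2.23 ± 0.15) and HDAC9 from 761 and 597 to 159 and 143 (-1.95 ± 0.13). Without control 2, 2 of these genes were higher, and without Zalypsis 1, 1 was. EZH2 gave 1355 and 1244 against 1538 and 1378 and was not called. Of 30 remodellers 14 were lower (46.7%) and 1 higher (median -0.38), 13 of the 14 in the 2 longest bins. ATRX went from 404 and 380.2 to 73.1 and 76.3 (-1.99 ± 0.13), PBRM1 from 1017 and 972 to 248 and 253 (-1.86 ± 0.14) and SMARCA4, the ATPase BRG1, from 1268 and 979.8 to 458 and 437 (-1.26 ± 0.16). In the cohesin group 7 of 14 fell (50%) and 1 rose. STAG1 went from 1122 and 907 to 30.3 and 26.7 (-4.11 ± 0.13), its relative STAG2 from 1686 and 1659 to 818 and 790.1 (-1.03 ± 0.15) and the loader NIPBL from 504 and 466 to 142 and 152 (-1.53 ± 0.13). The core ring genes SMC3 (1869.7 and 1610.0 against 1716 and 1474) and RAD21 (2869 and 2758 against 3091 and 2845), of shorter span, were not called.

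Of 35 cullins, HECT ligases and partners 24 were lower (68.6%, against 21.1% of all genes) and 2 higher, with a median of -0.82. Their median span was 130.4 kb, and the list lay 0.27 below genes of like span. UBR3 went from 549 and 521 to 65.8 and 68.1 (-2.52 ± 0.13), HERC1 from 360.1 and 337 to 70.8 and 59.6 (-1.97 ± 0.14) and CUL2, a scaffold of ligase complexes, from 425 and 349 to 195 and 212 (-0.82 ± 0.15). HUWE1, a giant ligase, stayed at 11976 and 11123 against 11874 and 10984 and was not called, although its span is 155 kb. Of 24 ubiquitin-conjugating enzymes 10 were lower and 3 higher (41.7% and 12.5%, against 21.1% and 16.4% of all genes). UBE2E2 went from 498 and 448 to 17.5 and 15.9 (-3.37 ± 0.13). Of these enzymes 6 fell without Zalypsis 2, 1 rose without control 2 and, by limma, 0 without Zalypsis 1.

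**Figure D5:**
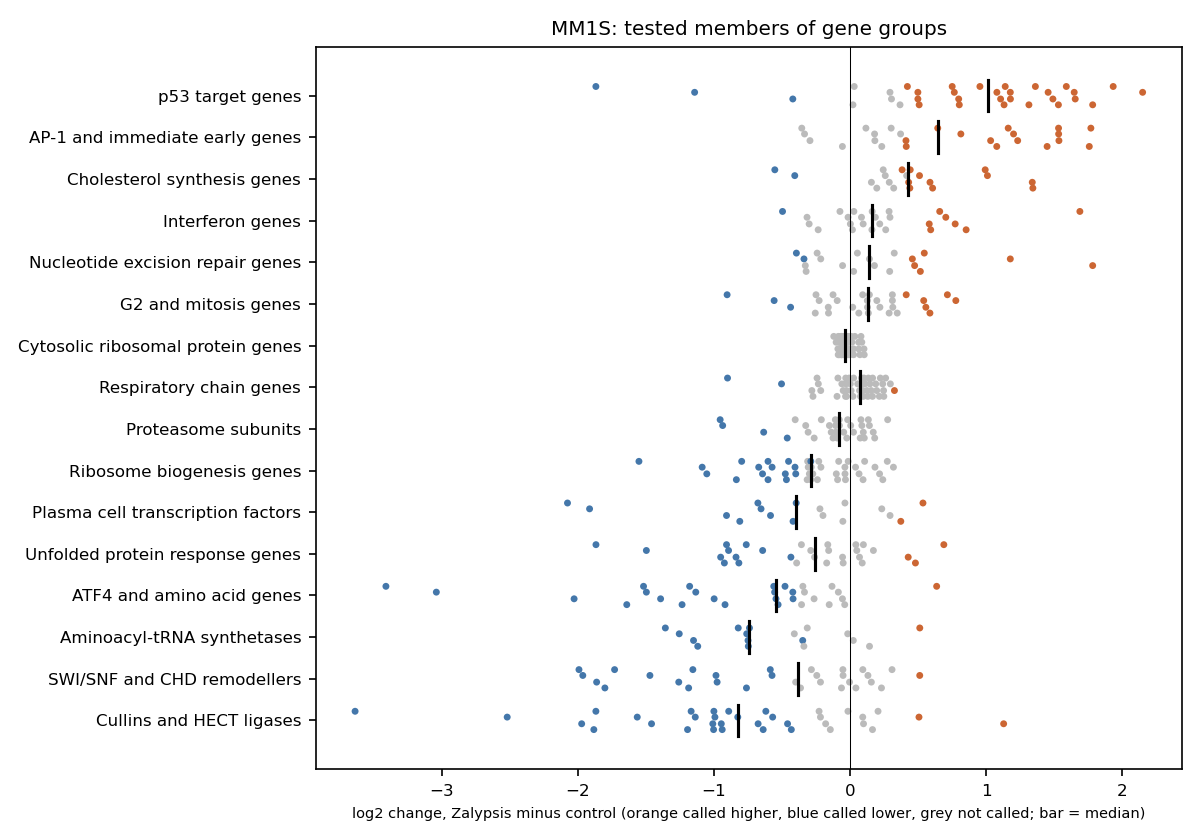
Log2 change (Zalypsis minus control) of each tested member of 16 gene groups, orange called higher, blue called lower, grey not called, with a black bar at the median. The medians run from 1.02 for p53 target genes through -0.03 for ribosomal protein genes to -0.82 for cullins and HECT ligases.

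Genes of basic cell functions changed less. Of 52 cytosolic ribosomal protein genes limma called 0 in either direction, with changes from -0.12 to 0.10, and most are short and among the brightest on the array (RPS16 at 16317 and 15860.0 against 15738 and 15526). Ribosome assembly, by contrast, had 16 of 42 genes lower (38.1%, against 21.1% of all genes) and 0 higher (median -0.29, 0.33 below genes of like span). UTP18 went from 1333 and 1118 to 402 and 389.7 (-1.55 ± 0.15), the helicase DDX21 from 2535 and 2324 to 1647 and 1446 (-0.64 ± 0.13) and POLR1A, the largest subunit of RNA polymerase I, from 165 and 161 to 62.5 and 61.6 (-1.05 ± 0.13), and 9 of the list fell without control 1 and 10 without Zalypsis 1. Of 47 respiratory chain genes 1 was higher and 2 lower, while by limma 0 were higher without any 1 of the 4 arrays, and with the scale of the hybridisation controls 0 were higher and 7 lower. Of the falls, NDUFS4 went from 1211 and 985 to 598 and 545 (-0.90 ± 0.15, span 123 kb). Of 33 proteasome genes 4 were lower and 0 higher, PSMD1 (-0.94) and PSMD14 (-0.63) among them, while the catalytic subunit PSMB5 gave 899 and 753 against 948 and 927 and was not called.

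RNA processing held falls in both long and short genes. Of 36 SR proteins, hnRNPs and their kinases 14 fell and 6 rose (38.9% and 16.7%, against 21.1% and 16.4% of all genes). HNRNPD, which binds AU-rich elements, went from 4721 and 4689 to 1857 and 1775 (-1.36 ± 0.13) with a span of 21.5 kb, but its brightest probe set of the plain kind rose (0.82). SRSF3 did the same, going from 6135 and 5611 to 3760.2 and 3968 (-0.60 ± 0.13) against a rise of 0.72. PTBP1 went from 3308 and 2898 to 2014 and 1879 (-0.66 ± 0.13), a call lost with the mean of its probe sets (-0.19). All 4 CLK kinases, which phosphorylate SR proteins, rose, CLK1 from 475 and 445 to 928 and 775 (0.84 ± 0.15). With the scale of the hybridisation controls 1 of the 36 genes was higher and 20 were lower, so at most 1 of the 4 CLK rises kept its call. Not all 4 kept it without control 2. Fewer of the 36 genes fell without Zalypsis 2. In mRNA decay 18 of 37 fell and 5 rose (48.6% and 13.5%, against 21.1% and 16.4% of all genes). Of the 18 falls 14 were in the 2 longest bins by span, and the list lay 0.18 below genes of like span. The deadenylases PARN, from 377 and 309.8 to 37.7 and 31.8 (-2.49 ± 0.14), and CNOT6L, from 1411 and 1328 to 348 and 371 (-1.84 ± 0.15), were among the falls. So was the nuclease XRN1, from 427 and 360.5 to 103 and 107 (-1.63 ± 0.14). TOB1 and TOB2 (1.19 ± 0.15) were among the rises. Of 43 nucleoporins and transport receptors 19 fell (44.2%) and 3 rose (6.98%), and the list lay 0.15 below genes of like span. Among the falls NDC1, a membrane anchor of the pore, went from 1229 and 899 to 282 and 308 (-1.73 ± 0.16).

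Of 20 cholesterol synthesis genes 11 were higher and 2 lower (55% and 10%, against 16.4% and 21.1% of all genes, median 0.42). IDI1 went from 1966 and 1631 to 3603 and 3672 (1.01 ± 0.16), a call lost with its brightest probe set of the plain kind (0.29), and STARD4, a cholesterol carrier, from 332 and 332 to 959.5 and 823 (1.34 ± 0.15). Of the sterol genes 6 were higher without control 2, 5 without Zalypsis 1 and 4 with the scale of the hybridisation controls, and 0 or 1 by limma were lower without any 1 of the 4 arrays. Of 25 interferon genes 7 rose and 1 fell (28% and 4%, against 16.4% and 21.1% of all genes). Their median was 0.16, and 0.01 with the scale of the hybridisation controls. Besides IRF7, ISG15 gave 81.3 and 124 against 176 and 193 (0.70 ± 0.18), a call lost without control 1 (0.47), while MX1 at 167 and 174 against 227 and 182 and OAS1 at 209.5 and 203 against 213 and 205 were not called, MX1 being called higher after quantile normalization (0.33). Of 17 tested replication-dependent histone genes 4 were higher (23.5%, against 16.4% of all genes) and 1 lower (5.88%, against 21.1%). H2BC12 went from 80.7 and 115 to 251 and 223 (1.06 ± 0.16). Fewer histone genes were higher without control 2.

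Of 19 heat shock genes 5 rose and 3 fell (26.3% and 15.8%, against 16.4% and 21.1% of all genes). With the scale of the hybridisation controls 2 rose and 7 fell. HSPB1 went from 431 and 344 to 758 and 696 (0.86 ± 0.16) and DNAJB1 from 995 and 814 to 1577 and 1421 (0.71 ± 0.16). Among 25 NRF2 and thioredoxin genes 5 rose and 5 fell (20% each, near the shares over all genes), and 1 rose and 5 fell with that scale. ME1, malic enzyme, went from 901 and 798 to 133.2 and 126 (-2.45 ± 0.13). Autophagy genes (6 of 34 higher, 7 lower) and glycolysis genes (2 of 20 each way) lay near the background. ATG5 went from 859 and 709 to 396 and 367 (-0.98 ± 0.15) and the sialidase NEU1 from 575 and 456 to 1453 and 1281 (1.36 ± 0.16). HK2, hexokinase 2, gave 521 and 390.4 against 181 and 119 (-1.43 ± 0.19), and SLC2A3, a glucose transporter, 121 and 132.9 against 281 and 238 (0.87 ± 0.13). TFEB, the master factor of lysosome genes, gave 75.9 and 60.3 against 34.1 and 27.2 (-0.67 ± 0.14). Without Zalypsis 1, 3 heat shock genes, 2 NRF2 genes and 2 autophagy genes rose. Without control 2, 1 NRF2 gene and 3 autophagy genes rose, and without Zalypsis 2, 3 autophagy genes. Without any 1 of control 1, Zalypsis 1 and Zalypsis 2, 1 heat shock gene and 3 NRF2 genes fell.

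Some of the brightest genes were called with small changes. ACTB, the actin of most cells, went from 13001 and 12258 to 9652 and 10551 (-0.32 ± 0.08) and NPM1, nucleophosmin, from 9755 and 9184 to 7619.9 and 7876 (-0.29 ± 0.08). TUBB4B, a tubulin, rose from 3713 and 3496 to 5128 and 5220.2 (0.52 ± 0.10), though not with the scale of the hybridisation controls. The call of ACTB was lost without control 1 (-0.28) and without Zalypsis 1 (-0.26). The call of NPM1 was lost without control 1 (-0.24) and without Zalypsis 1 (-0.26).

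Where the MM1S response differed from that of the OPM1-labelled cells, the difference was tested in the same fit (MM1S change minus OPM1 change), and 46.6% of all genes were called in that test. The p53 targets FAS, DDB2, TIGAR and TNFRSF10B, all risen in MM1S, changed by -0.13, -0.12, 0.22 and -0.19 in OPM1, none of them called. The differences were 1.72 ± 0.17, 1.90 ± 0.20, 1.44 ± 0.21 and 1.32 ± 0.21 (adjusted p at most 2.7e-05). Other p53 targets did change in OPM1, where CDKN1A (-1.78) and MDM2 (-2.76) were called lower and SESN2 (1.475) higher. ATF4 was not called in OPM1, at 3888 and 4621 in control and 4046 and 4232 in treated cells, a difference of -1.46 ± 0.18 (adjusted p = 8.5e-07). CHAC1 was dimmer there at 71.9 and 57.0 in control and 41.1 and 35.0 in treated cells and fell by 0.46 on the log2 scale, a difference of -2.58 ± 0.19. IRF4 was 285 and 350.9 in control and 295 and 367 in treated cells, a low level from the start, and the difference was -2.13 ± 0.24. Of the plasma cell antigens, TNFRSF17 gave 227 and 249, SDC1 6.56 and 12.9 and CD38 400 and 578 on the OPM1 control arrays. For HEXIM1, SERTAD1, POLR2A, PMAIP1, BCL2 and PSAT1 the differences were -0.06 ± 0.21, 0.04 ± 0.20, 0.11 ± 0.21, 0.07 ± 0.20, 0.12 ± 0.21 and -0.08 ± 0.21, none called, which does not show that the lines respond alike. The poly-A controls, another set of added transcripts, differed between the lines. Their geometric means lay between 22.7 and 30.6 in MM1S. They were 349 and 541 in OPM1 control and 1948 and 1479 in OPM1 treated cells. The upper quartile of signal was 101 and 108 in OPM1 control and 77.5 and 78.7 in OPM1 treated cells. How far this affects the shared spread or the differences between the lines was not tested. The GAPDH ratio of 3' to 5' was 2.26 on OPM1 control 1 and 0.963 to 1.06 on the other OPM1 arrays. Without that array the 7 called differences ran from -2.69 to 1.89 and stayed called.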

How the data were processed

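RNA of MM1S and OPM1 cells was measured on Affymetrix HG-U133 Plus 2.0 arrays, 8 in all, after 2 rounds of amplification from 100 ng per the labels' protocols. The values are the intensity of each probe set on a linear scale as deposited by the authors, who analysed the arrays with dChip per the series' design text. The dChip version, normalization and background step are stated in no source used here. The 54675 probe sets were named through GEO's platform annotation and the RefSeq table of GRCh38.p14, 41091 with 1 symbol, 1801 with several and 11721 with none, beside 62 control probe sets. Of the 41091, 41037 matched a gene of the RefSeq table.

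Each of the 19775 genes was read from its probe set of highest mean, and the lowest 40% by mean were left out, which leaves 11865. Changes were tested on log2(intensity + 32) with limma 3.58.1 in R 4.3.3, 4 group means over 8 arrays (4 residual and 16.99 prior degrees of freedom, trended prior), with Benjamini-Hochberg adjustment over all genes tested. The number of arrays limits the precision: the median SD between the arrays of a group was 0.11 in control and 0.09 in treated cells on the log2 scale. The fit was tested on simulated data. A list's median relative to span is that of its members' changes minus the median of their bin of genes by span.

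The genes named are fixed regulators and markers, and the 25 largest called changes each way among genes whose groups do not overlap. Up to 6 called members each way of each list were added. So were the 6 largest rises among the longest and falls among the shortest genes. The 6 genes with the largest opposite probe sets and the 6 brightest called genes each way complete them. Uncalled members and smaller called ones were named after their values were seen, and so were FANCB, STARD4, CUL2 and the interferon, heat shock and autophagy genes shown. The members and lists were chosen with earlier results of these data known. Alternatives were other pseudocounts, quantile normalization, scaling to hybridisation controls, other filters, other probe sets, fewer arrays, no trend, the replicate number as a block, and a rule of 2-fold with no test. The fit without OPM1 control 1 was chosen after seeing the data. A further gene list is not reported here.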

Additional observations from a re-analysis of the deposited data

Results flagged for a closer look

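Response differences between the lines were found by the test of the difference itself in limma (MM1S response minus OPM1 response, adjusted over all 11865 genes, of which 46.6% were called). The p53 targets FAS (1.72, adjusted p = 6.1e-08), DDB2 (1.90, 1.4e-07), TIGAR (1.44, 6.8e-06) and TNFRSF10B (1.32, 2.7e-05) rose more in MM1S, with both treated arrays above both control arrays. ATF4 (-1.46, 8.5e-07), its target CHAC1 (-2.58, 6.5e-10) and the plasma cell factor IRF4 (-2.13, 2.7e-07) fell more in MM1S, with both treated arrays below both control arrays. IRF4 and CHAC1 were dimmer in OPM1 control cells, where a fall is measured over a smaller range. The poly-A controls differed between the lines, and the effect of this on the differences was not tested. With 2 arrays a group, no array could be tested for standing apart.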

How the results depend on the processing

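Spearman's correlation between span and change stayed negative under the alternatives run, while counts of rises moved with the scale and with single arrays, and after quantile normalization more genes were called higher (2790) than lower (2345). Scaled to the hybridisation controls, 505 genes were higher, 81 of them over 2-fold, and 1381 fell over 2-fold. With every probe set tested, 7670 were called (3061 higher, 4609 lower, 312 and 1547 over 2-fold). The mean of probe sets gave 116 genes over 2-fold higher and 453 lower, a pseudocount of 1 gave 423 higher, and the 2-fold rule with no test 447. Leaving out 1 array gave 986 to 2157 genes higher. The causes were not tested, except that the alternatives with a filter or every probe set change which features enter.

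The median of the longest bin (-0.86) was -1.17, -0.98 and -0.69 at pseudocounts of 1, 16 and 64, -0.75 after quantile normalization and -1.15 with the hybridisation scale. It was -0.13 with no filter, -1.07 with the lowest 60% left out, -0.58 with the mean of probe sets, -0.65 with plain probe sets, -0.78 with every probe set and -0.89 to -0.82 with 1 array left out. The shortest bin's (0.16) was -0.090 with the hybridisation scale. Spearman's correlation (-0.48) was -0.33 with no filter, -0.53 with the lowest 60% left out and -0.51 to -0.45 with 1 array left out.

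Genes that turned direction were FNIP1 (-0.80), MAF (0.15), HNRNPD (0.82), SRSF3 (0.72) and PAOX (-0.080) with plain probe sets, and CDK19 (-0.22), NEDD4L (-0.23), ETV6 (-0.54), ASXL1 (-0.012), ERN1 (-0.65) and LARS1 (-0.21) with the mean of probe sets. The calls of MSI2, MDM4, ATF3, NFKBIB and IDI1 were lost with plain probe sets and those of FNIP1, ITPKB, SRSF3, PTBP1, MDM4, PDE4A, NFKBIB and PAOX with the mean, and those of EXO1, DNAJB1 and ISG15 with the hybridisation scale. PSAT1's difference between the lines was called after quantile normalization. With no filter the calls of PRDM1, BAX, SESN2, ERCC5, NFKBIB, ASNS, NARS1, LARS1, NPM1, PDE4B and PAOX were lost. A pseudocount of 1 lost those of PRDM1, SESN2, NFKBIB and PDE4B, and quantile normalization those of NFKBIB and PDE4B. Every probe set lost those of SESN2 and PDE4B, and no trend those of ACTB, NPM1 and PDE4B.

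Same-numbered arrays of a line deviated together at r = 0.21 in MM1S and 0.21 in OPM1, but the labels state no pairing and a line has 2 pairs. With the replicate number as a block 2561 genes were higher and 2900 lower, among them 1946 of the 1950 and all of the 2507 called without it. The values of all results on span were as without the block. Dim genes have only a small range above background, which limits their falls.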

Other observations

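Of 19 tested genes of protein kinase C, phosphodiesterases and adenylyl cyclases 7 were lower and 1 higher (36.8% and 5.26%, against 21.1% and 16.4% of all genes), with a median of -0.30, 0.15 above genes of like span, and a median span of 134 kb. Besides PRKCA, the kinase gene PRKD3 went from 3317 and 3771 to 1343 and 1399 (-1.35 ± 0.15) and the phosphodiesterase gene PDE4A from 159 and 125 to 65.1 and 59.9 (-0.88 ± 0.14), a call lost with the mean of its probe sets (-0.13). PDE4B, which also cleaves cyclic AMP, was the 1 member called higher, from 79.5 and 53.3 to 170.2 and 69.6 (0.56 ± 0.20), although its span is 582 kb.

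Among the deepest falls were further scaffold and traffic proteins. IQGAP2, a scaffold of the actin cytoskeleton, went from 863 and 816 to 47.5 and 56.9 (-3.37 ± 0.13), CADPS2, which primes secretory vesicles, from 1165 and 925 to 67.2 and 60.9 (-3.48 ± 0.14) and SCFD2, of the vesicle fusion family, from 669 and 521 to 31.1 and 23.2 (-3.40 ± 0.15). In each the treated arrays lay far below the control arrays. Of 10 polyamine genes 2 rose (20%, against 16.4% of all genes) and 1 fell (10%, against 21.1%). The risen ones were SAT1, which starts polyamine breakdown, and PAOX, an oxidase of the same path (0.35 ± 0.13, though -0.080 with its brightest probe set of the plain kind). SMS, which makes spermine, fell from 638 and 512 to 394 and 385 (-0.52 ± 0.16). The call of PDE4B was lost with the scale of the hybridisation controls (0.30), without control 2 (0.36) and without Zalypsis 1 (0.06). It was lost too with quantile normalization (0.56), a pseudocount of 1 (0.73), no filter, every probe set or no trend. The call of PAOX was lost with the scale of the hybridisation controls (0.12), without control 1 (0.37), without control 2 (0.33), without Zalypsis 1 (0.28) and without Zalypsis 2 (0.42). The call of SMS was lost without control 1 (-0.37), without Zalypsis 1 (-0.53) and without Zalypsis 2 (-0.50).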
